A study of Homo sapiens with 6 samples.

Results

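The genes described here encode the ligands and receptors of the tumour necrosis factor (TNF) superfamily. They were taken by name from the deposited gene table: every gene named TNFRSF or TNFSF with a number, together with FAS, FASLG, TNF, LTA, LTB and LTBR. No level was required for membership, and 39 of the 26364 genes in the table belonged. By role, 6 were receptors with an intracellular death domain, 4 were decoy receptors, 13 were receptors without a death domain and 16 were ligands, counting the TNFSF12-TNFSF13 read-through gene as a ligand. The RNA came from MV4-11, an established line of human acute myeloid leukaemia cells with an internal tandem duplication in the receptor kinase gene FLT3. The line was kept in RPMI1640 with fetal bovine serum, glutamine and antibiotics. One group of 3 libraries received the vehicle DMSO, and the other group of 3 received 22d, known as an inhibitor of the deacetylase HDAC8, at 10 nM. Both groups were harvested after 18 hours. A single cell line was used, and whether the libraries of a group are separate cultures is not stated; p-values therefore cover only the variation among these libraries, which may be technical.

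TNF superfamily ligands are mostly trimeric membrane proteins, some of which are shed, and their receptors bind them through cysteine-rich repeats. Receptors with a death domain can recruit the adapter FADD and caspase-8 to start apoptosis, or TRADD and RIPK1 to activate NF-kB. Receptors without one bind TRAF adapters and act mainly through NF-kB and MAP kinases, and decoy receptors bind ligand without passing on a death signal. In myeloid cells the family is known for inflammatory signalling, for control of survival and for exchange of signals with lymphocytes. FAS and the TRAIL receptor gene TNFRSF10B are known p53 target genes, though not the only ones in the superfamily. The part of p53 in the results below was not tested.

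The libraries held 19995430 to 23749257 reads in genes, and 1 read was worth 0.839 to 1.14 normalized counts, the reads divided by the authors' size factor of that library. Reads were found in 16268 to 17055 genes in 5 libraries and in 19285 genes in 22d replicate 3; without that library, 11 members were called, 10 higher and TNFRSF13C lower. Of 10 myeloid marker genes, 9 averaged 10 normalized counts or more and the monocyte marker CD14 did not. The list summed to 78498 to 98533 normalized counts with DMSO and 50418 to 62304 with 22d, with LYZ at 38415 to 56489 and 11407 to 21870. The list did not move alike. LYZ, MPO, FCGR1A and CD14 were lower in every library with 22d than in any with DMSO. CSF1R (1519 to 1873 with DMSO, 2540 to 3245 with 22d), FLT3 (4707 to 5404, 5931 to 7356) and ITGAM (61.5 to 97.2, 106 to 157) were higher. The groups overlapped for CD33, SPI1 and CEBPA. None of the 5 T cell markers in the table, 0 of 5 erythroid markers and 0 of 5 fibroblast markers reached a mean of 10 normalized counts. CD3D, CD2, COL1A2 and LUM were at 0 in every library. These lists summed to at most 7.97, 10.2 and 16.8 normalized counts in a library. The B cell markers summed to 160 to 201 normalized counts with DMSO and 109 to 155 with 22d, with MS4A1 at 0. The NK cell list (587 to 879 with DMSO, 1137 to 1188 with 22d) rested on NKG7, and the epithelial list (296 to 357 and 416 to 538) on KRT8 and KRT18, with EPCAM at 0 to 4.20. The part of these marker levels in the results below was not tested. In bulk RNA, fewer cells of a type and less RNA per cell cannot be told apart.

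After 18 hours with 22d, 11 members rose: the death receptor genes TNFRSF25, FAS and TNFRSF10B, the decoy receptor gene TNFRSF10D, the receptor genes TNFRSF4 and TNFRSF14, and the ligand genes TNFSF14, TNFSF4, TNFSF10, TNFSF9 and TNFSF13B. The death receptor gene TNFRSF10A was the only member called lower. The genes of TNF and of both of its receptors, TNFRSF1A and TNFRSF1B, did not pass the test. The test was limma-trend on log2(normalized counts + 1), applied to genes that averaged 10 normalized counts or more across the 6 libraries, and calls were made at an adjusted p (Benjamini-Hochberg, over every tested gene) under 0.05. Of the 39 members, 22 were tested, 11 were called higher, 1 was called lower and 10 did not pass. Among all 13297 genes tested, 58.0% were called, 28.5% higher and 29.6% lower. With edgeR on the recovered reads, 11 members were called higher and 0 lower, against 58.1% of all genes called, 29.8% higher and 28.3% lower. Scaling by library totals in place of the size factors moved this split: 39.7% of all genes were then called higher and 20.8% lower, with 13 members higher and 0 lower. The median log2 fold change of the 22 tested members was 0.51, against 0.01 for all genes tested. These counts cover only members above the filter, and a member that passed the filter through its level with 22d had to lean upward. The 3 libraries of each group did not overlap for 13 of the 22 tested members, against 65.4% of all genes tested.

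**Figure D1:**
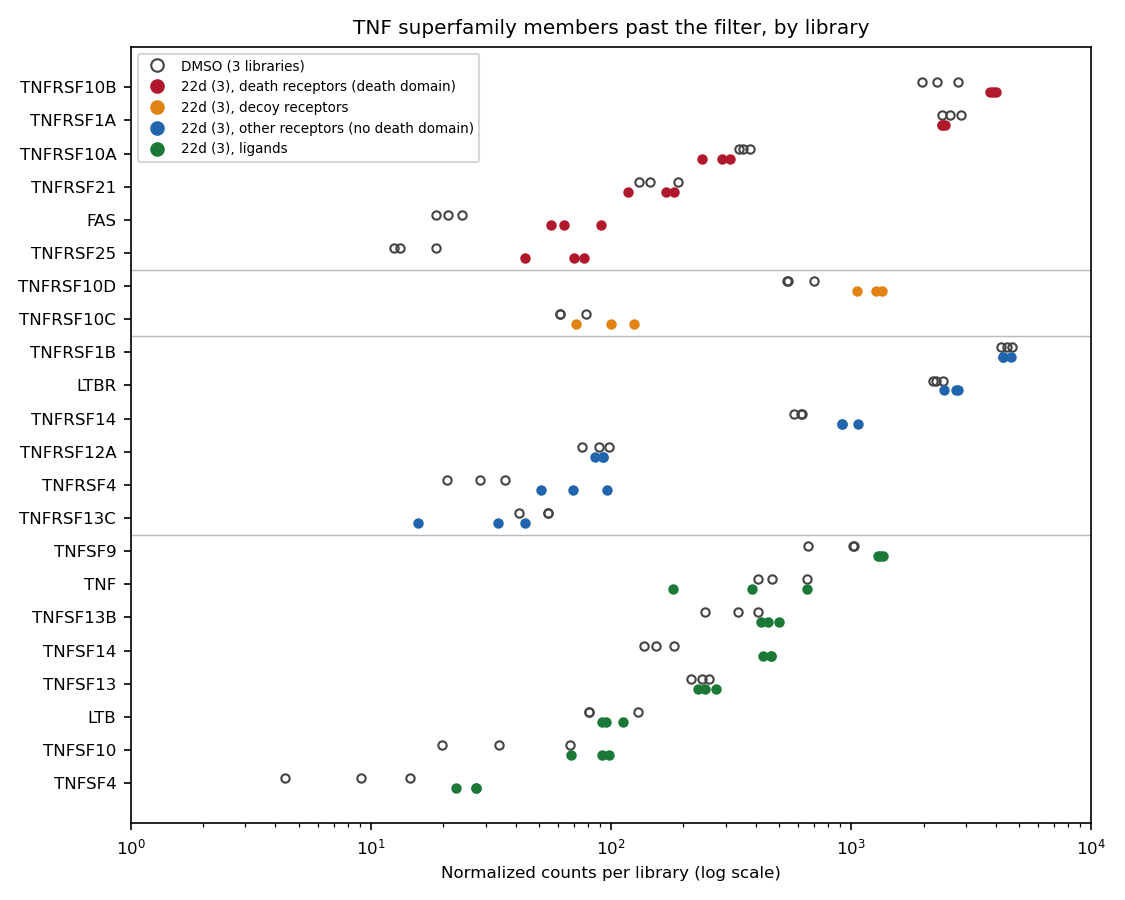
Normalized counts (log axis) of the 22 tested members in each library, with the 3 DMSO libraries as open circles and the 3 libraries with 22d as filled circles coloured by role. For FAS, TNFRSF25, TNFRSF10D and TNFSF14 the libraries with 22d all lie to the right of the DMSO libraries, while those of TNFRSF1B and TNF overlap.

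The start regions of the members were searched for a few motifs, since several members rose together. RefSeq start windows on GRCh38.p14, 250 bases before to 50 after the start, were matched for 27 of 39 members by symbol, taking the first window listed for each gene. The genes TNFRSF10A, TNFRSF10B, TNFRSF10C, TNFRSF10D and TNFRSF4 were among those without a window and were not searched. On both strands, the motifs were TGTTTAC (FOXO), GGGCGG (GC box), TTTCCCGC (E2F), the kappaB consensus bound by NF-kB and the p53 decamer. A kappaB match stood in 5 of 27 member windows, or 18.5%, against 5.7% of 27305 windows of all genes. Of the 8 members called higher that had a window, 3 held one (TNFRSF14, TNFSF14 and TNFRSF25), and LTB and TNFRSF9 were the others. A FOXO match stood in 1 member window (3.7% against 3.4%), a p53 decamer in 2 (7.4% against 6.5%), a GC box in 16 (59.3% against 44.6%) and an E2F match in 0 (against 1.7%). The 30 bases around the kappaB match are shown for the 4 tested members that hold one, with the match in capitals; none overlapped a match to another of these motifs.
TNFRSF14: tggactttggGGGGCTCCCCcttctacagg
TNFSF14: gggaaagctgGGGGCTCCCCactgcacttg
TNFRSF25: cagagagcacggagccGGGAAGCCCCtggg
LTB: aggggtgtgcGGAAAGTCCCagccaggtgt
The receptor TNFRSF14 (chr1:2556277-2556306, plus strand, match 84 bases before the start) and its ligand TNFSF14 (chr19:6670332-6670361, minus strand, 191 bases before) carry the same 10 letters, GGGGCTCCCC. The match of TNFRSF25 (chr1:6466124-6466153, minus strand) begins 37 bases into the transcript, and that of LTB (chr6:31582492-31582521, minus strand) lies 86 bases before the start. All of these distances are from the start of the RefSeq window used, the first listed. By their GENCODE v29 spans, TNFRSF14, TNFSF14 and LTB begin further upstream, so their matches lie inside the annotated genes. These are letter matches and say nothing of binding. The median ratio of observed to expected CpG was 0.44 in the windows of 15 tested members and 0.25 in those of 12 members under the filter, against 0.58 over all genes.

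Apart from the TRAIL receptor ratios given below, levels were compared between genes per length, as normalized counts per kilobase of exon. The union of GENCODE v29 exons on hg38 was used. With DMSO, TNFRSF1B stood highest at 1176 ± 62.7 per kilobase (SD, n = 3), and its lowest library lay above every library of TNFRSF1A (654 ± 59.5). TNFRSF1A, TNFSF9 (542 ± 126), TNFRSF10B (453 ± 78.0), LTBR (364 ± 18.7) and TNF (304 ± 76.4) followed, and each overlapped its neighbour in that order. The lowest tested members were TNFSF4 (2.37 ± 1.28), TNFRSF25 (3.45 ± 0.782) and FAS (4.97 ± 0.623). On the same scale with 22d, TNFRSF1B remained first at 1167 ± 57.8, and TNFSF9 (794 ± 18.9) and TNFRSF10B (756 ± 22.3) stood above TNFRSF1A (601 ± 9.01). FAS (16.5 ± 4.22) and TNFRSF25 (14.9 ± 4.09) thus stayed among the low members after 22d although their fold changes were the largest of the tested death receptors.

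**Figure D2:**
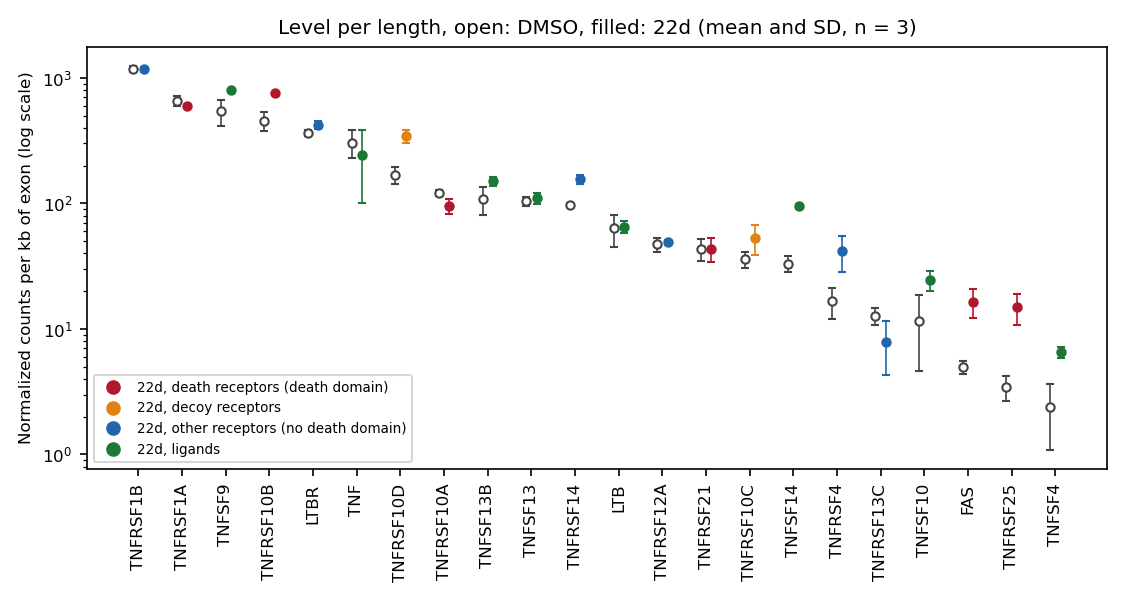
Mean level per kilobase of exon (log axis) of the 22 tested members, ordered by their level with DMSO, with open points for DMSO, filled points for 22d and bars for the SD over 3 libraries. TNFRSF1B is first in both groups, and FAS, TNFRSF25 and TNFSF4 are the lowest with DMSO.

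Among the death receptor genes, TNFRSF25, FAS and TNFRSF10B rose, TNFRSF10A was called lower, and TNFRSF1A and TNFRSF21 did not pass. TNFRSF25 encodes the receptor of the ligand TNFSF15 and lies at chr1:6460786-6466195 on hg38. Its libraries held 12.5, 18.6 and 13.2 normalized counts under DMSO, against 44.0, 70.3 and 77.2 under 22d, in the order of replicates 1 to 3. Every library with 22d lay above every DMSO library. TNFRSF25 had a log2 fold change of 2.02 (standard error 0.31, adjusted p = 0.00010 by limma). Of its exon bases, 8.9% overlap ESPN on the other strand and 2.4% overlap PLEKHG5, and since the strand setting of the counting was not given in the sources used here, reads there cannot be assigned with certainty.

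FAS encodes the receptor of FAS ligand and lies at chr10:88990582-89015785. It held 23.9, 18.6 and 20.8 normalized counts under DMSO, against 63.5, 90.3 and 56.2 under 22d. The groups did not overlap, and the log2 fold change was 1.66 (standard error 0.27, adjusted p = 0.00017 by limma). The gene ACTA2 on the opposite strand shares 8.9% of the exon bases of FAS. FASLG, which encodes the FAS ligand, had 0 reads in all 6 libraries, which allows up to 3 reads, or 2.52 to 3.41 normalized counts, per library. That limit covers counting error only.

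TNFRSF10B and TNFRSF10A encode the TRAIL receptors with a death domain, and they moved in opposite directions. TNFRSF10B (chr8:23020133-23069179) held 2773, 2265 and 1979 normalized counts under DMSO, against 3783, 4014 and 3895 under 22d. It rose by 0.75 on the log2 scale (standard error 0.12, adjusted p = 0.00018 by limma), with no overlap between groups. TNFRSF10A (chr8:23190452-23225126) held 353, 379 and 342 normalized counts under DMSO, against 239, 313 and 290 under 22d. Its highest library with 22d was below its lowest with DMSO, and the log2 fold change was -0.36 (standard error 0.14, adjusted p = 0.046 by limma). That call was lost with edgeR on the recovered reads (adjusted p = 0.068) and without any single library other than 22d replicate 2 (adjusted p between 0.061 and 0.14). It was also lost with scaling by library totals, where the log2 fold change was -0.14 (adjusted p = 0.44).

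The ratio of TNFRSF10B to TNFRSF10A in the same library does not depend on the size factor, and it was not scaled to gene length. It was 7.86, 5.98 and 5.78 with DMSO and 15.9, 12.8 and 13.4 with 22d. The ratio was therefore higher in each library with 22d than in any DMSO library, at 14.0 ± 1.60 against 6.54 ± 1.15 (SD, n = 3); it was given no test, having been formed after the values were seen.

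The remaining death receptors showed no call. TNFRSF1A, which encodes the TNF receptor with a death domain, held 2871, 2587 and 2398 normalized counts under DMSO, against 2386, 2447 and 2382 under 22d. The groups overlapped, and its log2 fold change was -0.12 (95% confidence interval -0.34 to 0.10, adjusted p = 0.34 by limma), positive under library-total scaling (0.10) and quantile normalization (0.14). TNFRSF21, which encodes a receptor with a death domain studied mainly in neurons and T cells, held 131, 189 and 145 normalized counts under DMSO, against 117, 169 and 183 under 22d. Its log2 fold change was 0.01 (95% confidence interval -0.44 to 0.45), and its sign changed with several libraries left out.

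Of the 4 decoy receptor genes, TNFRSF10D and TNFRSF10C passed the filter. TNFRSF10D encodes a TRAIL receptor with a truncated death domain. It held 702, 547 and 539 normalized counts under DMSO, against 1054, 1264 and 1339 under 22d. The groups were far apart, with a log2 fold change of 1.03 (standard error 0.14, adjusted p = 3.6e-05 by limma). TNFRSF10C encodes a membrane-anchored TRAIL receptor that lacks an intracellular domain. It held 78.5, 61.0 and 61.4 normalized counts under DMSO, against 71.4, 99.5 and 124 under 22d. The groups overlapped through 22d replicate 1, and the log2 fold change of 0.52 did not pass (95% confidence interval 0.02 to 1.03, adjusted p = 0.071 by limma). Without 22d replicate 1 it passed at 0.73 (adjusted p = 0.013), and it also passed with scaling by library totals. TNFRSF10C shares 35.4% of its distinct 50-base stretches with other annotated transcripts at its locus, so its level is uncertain. The sum of both decoy genes over the sum of TNFRSF10A and TNFRSF10B was 0.250, 0.230 and 0.259 with DMSO and 0.280, 0.315 and 0.350 with 22d, higher in each library with 22d than in any with DMSO. This ratio includes the uncertain level of TNFRSF10C, was not scaled to gene length and was given no test.

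**Figure D3:**
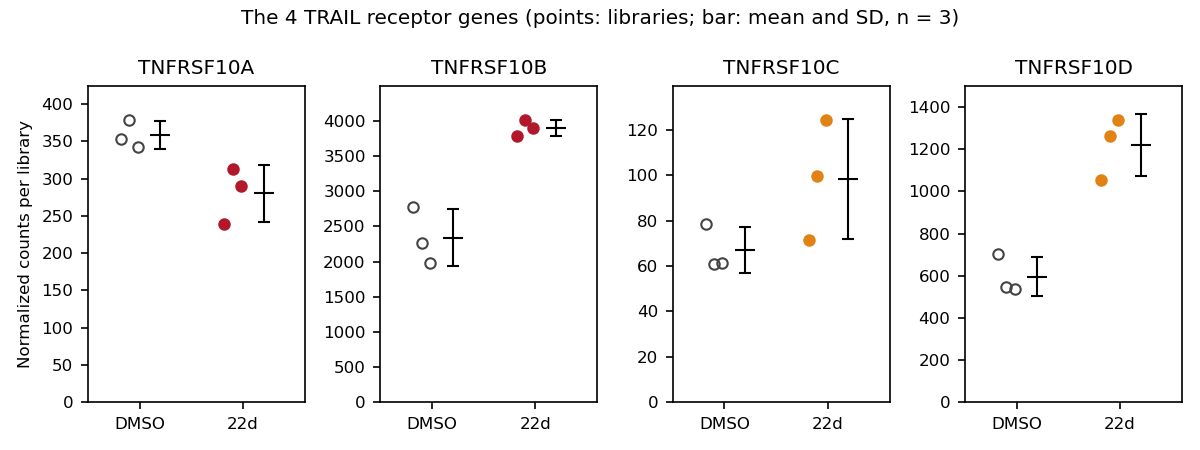
Normalized counts (axes from 0, scaled per gene) of the 4 TRAIL receptor genes in each library, with the mean and SD over 3 libraries beside the points. TNFRSF10B and TNFRSF10D lie higher with 22d, TNFRSF10A lies lower, and the TNFRSF10C groups overlap.

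Among receptors without a death domain, TNFRSF14 and TNFRSF4 rose and 4 tested genes did not pass. TNFRSF14 encodes the herpesvirus entry mediator, a receptor of TNFSF14, and lies at chr1:2555639-2565382. It held 579, 622 and 620 normalized counts under DMSO, against 916, 919 and 1064 under 22d, with a log2 fold change of 0.67 (standard error 0.12, adjusted p = 0.00028 by limma). All libraries with 22d were higher than all DMSO libraries. The antisense gene TNFRSF14-AS1 shares 13.4% of its exon bases. TNFRSF4 encodes the costimulatory receptor OX40. Its libraries held 28.4, 20.7 and 36.2 normalized counts under DMSO, against 50.8, 69.4 and 96.5 under 22d, a log2 fold change of 1.30 (standard error 0.30, adjusted p = 0.0021 by limma). These groups did not overlap, but the 22d libraries spread widely.

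TNFRSF1B, which encodes the TNF receptor without a death domain, held 4440, 4660 and 4188 normalized counts under DMSO, against 4273, 4267 and 4647 under 22d. The groups overlapped almost entirely, with a log2 fold change of -0.01 (95% confidence interval -0.22 to 0.20). Under quantile normalization it was 0.30 and passed (adjusted p = 0.0091). LTBR, which encodes the lymphotoxin beta receptor, held 2187, 2416 and 2256 normalized counts under DMSO, against 2732, 2440 and 2782 under 22d. These groups did not overlap, yet the log2 fold change of 0.21 did not pass (95% confidence interval -0.01 to 0.43, adjusted p = 0.092 by limma). LTBR did pass with scaling by library totals (0.43, adjusted p = 0.0023) and quantile normalization (0.47, adjusted p = 0.0016). TNFRSF12A, which encodes the receptor of TNFSF12, lay at 75.7 to 97.9 normalized counts with DMSO and 86.0 to 92.3 with 22d. TNFRSF13C, which encodes the BAFF receptor of B cells, held 54.6, 41.4 and 54.8 normalized counts under DMSO, against 15.6, 33.8 and 43.7 under 22d. It was lowest in 22d replicate 1, and its log2 fold change of -0.78 did not pass (95% confidence interval -1.52 to -0.04, adjusted p = 0.066 by limma). Without 22d replicate 3 it passed at -1.08 (adjusted p = 0.022), and without 22d replicate 1 it was -0.37 (adjusted p = 0.26).

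Of the 8 ligand genes tested, TNFSF14, TNFSF4, TNFSF10, TNFSF9 and TNFSF13B rose and none was called lower. TNFSF14 encodes LIGHT, a ligand of TNFRSF14 and LTBR, and lies at chr19:6661253-6670588; its start window holds the kappaB letters it shares with TNFRSF14. It held 183, 138 and 154 normalized counts under DMSO, against 465, 465 and 427 under 22d. The groups were well separated, and the log2 fold change of 1.52 (standard error 0.15, adjusted p = 2.8e-06 by limma) had the smallest p of all members. TNFSF4 encodes the ligand of TNFRSF4 and was the tested member with the lowest mean. Its mean with DMSO was below the filter of 10, so it was tested only through its level with 22d and had to lean upward. It held 9.10, 14.5 and 4.39 normalized counts under DMSO, against 27.4, 27.4 and 22.7 under 22d, a log2 fold change of 1.50 (standard error 0.42, adjusted p = 0.0079 by limma). The groups did not overlap.

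TNFSF10, which encodes TRAIL, held 67.1, 34.1 and 19.7 normalized counts under DMSO, against 97.8, 91.3 and 68.0 under 22d. The highest DMSO library lay just under the lowest library with 22d. Its log2 fold change was 1.22 (standard error 0.36, adjusted p = 0.0099 by limma), and without DMSO replicate 3 it was 0.81 (adjusted p = 0.042). TNFSF9, which encodes a costimulatory ligand of the receptor TNFRSF9, held 1014, 1031 and 660 normalized counts under DMSO, against 1291, 1354 and 1321 under 22d. DMSO replicate 3 was the low library. The log2 fold change was 0.58 (standard error 0.15, adjusted p = 0.0059 by limma), and without DMSO replicate 3 it was 0.37 (adjusted p = 0.017). TNFSF13B, which encodes the B cell survival factor BAFF, held 410, 246 and 338 normalized counts under DMSO, against 501, 422 and 451 under 22d. It rose by 0.49 on the log2 scale (standard error 0.17, adjusted p = 0.026 by limma), a call lost without DMSO replicate 2 (0.29, adjusted p = 0.12), without 22d replicate 1 (0.43, adjusted p = 0.066) and without 22d replicate 3 (0.50, adjusted p = 0.052).

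TNF itself held 407, 654 and 470 normalized counts under DMSO, against 182, 655 and 385 under 22d. It varied more between libraries of a group than most members, and 22d replicate 1 was the lowest and 22d replicate 2 the highest of all 6. The log2 fold change of -0.48 did not pass (95% confidence interval -1.21 to 0.25, adjusted p = 0.24 by limma). It was 0.01 without 22d replicate 1 (adjusted p = 0.98) and passed at -0.91 without 22d replicate 2 (adjusted p = 0.010). TNFSF13, which encodes APRIL, lay at 216 to 255 normalized counts with DMSO and 229 to 275 with 22d, but 55.5% of its exon bases are shared with the TNFSF12-TNFSF13 read-through gene. LTB, which encodes lymphotoxin beta, lay at 80.8 to 129 with DMSO and 91.9 to 112 with 22d. Neither TNFSF13 (log2 fold change 0.08) nor LTB (0.07) passed.

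**Figure D4:**
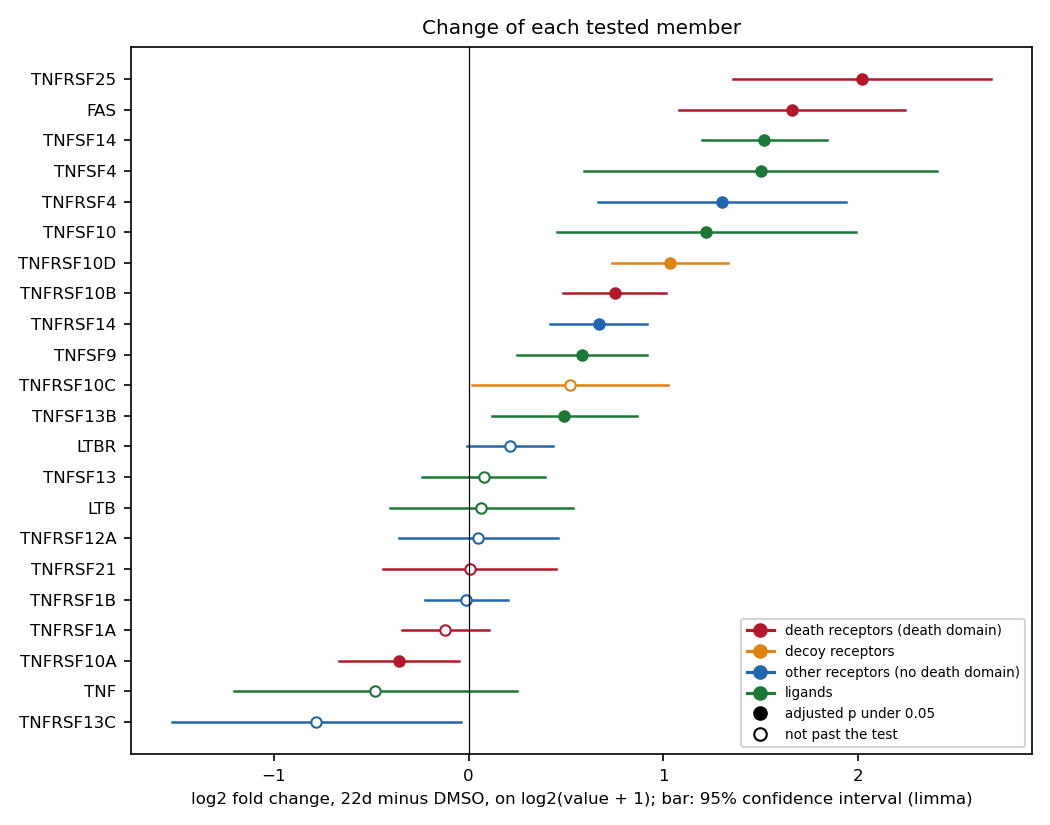
Log2 fold change (22d minus DMSO, on log2(value + 1)) of the 22 tested members in order, with bars for limma's 95% confidence interval and filled points for an adjusted p under 0.05. TNFRSF25, FAS, TNFSF14 and TNFSF4 are at the top, and TNFRSF10A is the only filled point left of 0.

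The death receptors were set against the other members. Of the 6 death receptors, all were tested, 3 were called higher and 1 lower, with a median log2 fold change of 0.38. Of the 33 other members, 16 were tested, 8 were called higher and 0 lower, with a median of 0.51. An unadjusted limma p under 0.05 was found for 10 of these 16, against 8303 of all 13297 genes tested. Limma called 29.6% of all genes tested lower and edgeR 28.3%, against 0 of these 16 with either. The difference between the medians was -0.13, and its sign changed between ways of processing and with DMSO replicate 2 left out (0.07). The death receptors ranged from -0.36 for TNFRSF10A to 2.02 for TNFRSF25, and the other tested members from -0.78 for TNFRSF13C to 1.52 for TNFSF14. By role, 1 of 2 tested decoy genes, 2 of 6 other receptor genes and 5 of 8 ligand genes rose, where 28.5% of all genes tested were called higher, and counts this small are given as a description only.

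Several ligand and receptor partners could be read side by side. TNFSF14 and its receptor TNFRSF14 both rose, while LTBR, another of its receptor genes, did not pass. A rise was also called for both TNFSF4 and its receptor TNFRSF4. TRAIL (TNFSF10) rose, and of its receptor genes TNFRSF10B and TNFRSF10D rose, TNFRSF10A was called lower and TNFRSF10C did not pass. TNFSF9 rose while its receptor gene TNFRSF9 had 0 to 7 reads per library. TNFRSF25 rose while its ligand gene TNFSF15 had 0 to 8 reads per library, and FAS rose with no read of FASLG in any library. TNFSF13B rose, and TNFRSF13C, which encodes a receptor for it, did not pass.

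The 17 members under the filter were tested only where the filter was dropped. None had more than 16 reads in any library, and 13 of them had a read in at least 1 library. TNFRSF8, which encodes the lymphocyte activation receptor CD30, had the most reads, not scaled to gene length, with 14, 7 and 7 with DMSO and 4, 8 and 16 with 22d. LTA had 2, 4 and 3 reads with DMSO and 1, 2 and 1 with 22d, TNFRSF18 had 0 to 7 reads per library, and TNFRSF11A had 0 to 5. TNFRSF11B, the gene of osteoprotegerin, had 0 to 3 reads, and TNFSF11, which encodes RANK ligand, had 0 to 3. TNFRSF17, TNFRSF13B and TNFRSF19 each had a single read in 1 library, in 22d replicate 3 for the latter pair. FASLG, TNFSF18, TNFSF8 and TNFSF12-TNFSF13 had 0 reads in all 6 libraries. TNFSF12 (3 to 8 reads) and TNFRSF6B (0 to 8 reads) are uncertain, because 29.4% and 100% of their exon bases are shared with the read-through genes TNFSF12-TNFSF13 and RTEL1-TNFRSF6B, which were also at 0. How the counting treated reads that lie in 2 genes was not given in the sources used here. With no filter, the 13 members with reads were tested and 0 of them passed. In the authors' deposited table too, 0 of the members under the filter passed.

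Downstream of the receptors, the adapters, kinases, ubiquitin ligases and caspases changed in both directions. Of 46 signalling genes listed, 45 were tested, 13 rose, 9 fell and 23 did not pass, with a median log2 fold change of -0.01. The share that rose was near the 28.5% of all genes called higher, and the share called in either direction was below the 58.0% of all genes. With scaling by library totals, 19 were higher and 5 lower, where 39.7% and 20.8% of all genes were called. BIRC2, which encodes the ubiquitin ligase cIAP1, rose from 281 ± 9.63 to 625 ± 85.6 normalized counts (SD, n = 3), a log2 fold change of 1.14 (adjusted p = 1.5e-05 by limma). TANK, which encodes a TRAF-binding adapter, rose by 1.00 and CYLD, which encodes a deubiquitinase that restrains NF-kB, by 0.89. CFLAR, which encodes the caspase-8 inhibitor c-FLIP, rose from 3120 ± 203 to 4909 ± 151 normalized counts (SD, n = 3), a log2 fold change of 0.66 (adjusted p = 9.5e-05 by limma).

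Among the falls, TRAF2, the adapter that links TNF receptors to cIAP ligases, fell from 1336 ± 216 to 580 ± 32.8 normalized counts (SD, n = 3), a log2 fold change of -1.19 (adjusted p = 8.5e-06 by limma). FADD, the death domain adapter of FAS and the TRAIL receptors, held 1372, 1264 and 1153 normalized counts under DMSO, against 748, 801 and 787 under 22d. It fell by 0.69 on the log2 scale (standard error 0.11, adjusted p = 0.00016 by limma), with no overlap between groups. DAXX, which encodes a FAS-binding chromatin protein, fell by 0.64, and IKBKG, the regulatory subunit gene of the IkB kinase, fell by 0.59. IKBKG has a near-identical pseudogene copy, so its level is uncertain. CASP8, the initiator caspase gene, averaged 293 ± 19.6 normalized counts under DMSO, against 338 ± 26.4 under 22d (SD, n = 3), and did not pass (adjusted p = 0.20 by limma), though it did with scaling by library totals (0.43, adjusted p = 0.025). RIPK1 (log2 fold change 0.22), which also passed under library-total scaling (0.44), TRADD (0.09) and TNFAIP3 (-0.39) did not pass. TNFAIP3, which encodes the NF-kB inhibitor A20, passed as lower without DMSO replicate 3 (-0.68, adjusted p = 0.018) and without 22d replicate 2 (-0.66, adjusted p = 0.018). It was nearer to 0 without DMSO replicate 1 (-0.26), DMSO replicate 2 (-0.24) or 22d replicate 1 (-0.22).

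**Figure D5:**
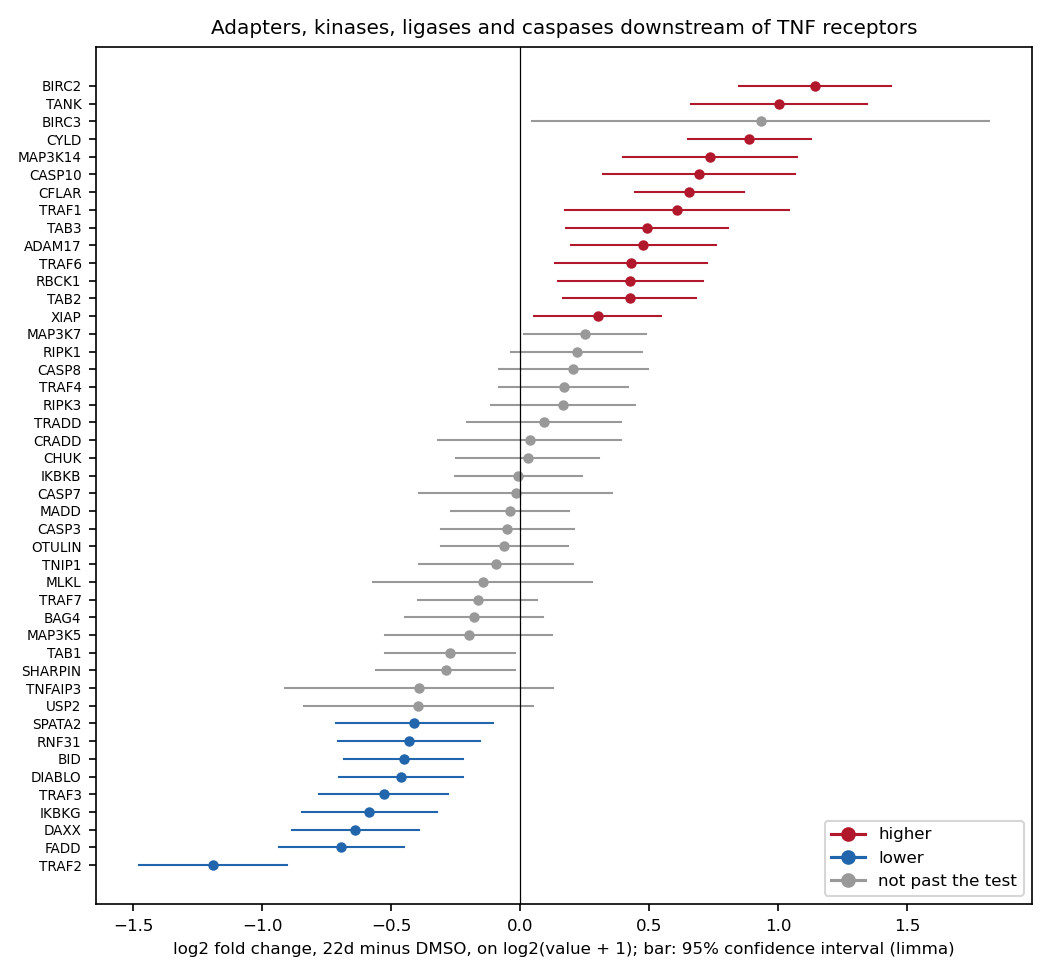
Log2 fold change (22d minus DMSO, on log2(value + 1)) of the 45 tested signalling genes, with bars for limma's 95% confidence interval and colours for the call. BIRC2 and TANK rose most and TRAF2 fell most. The 23 genes that did not pass lie mostly in the middle, but BIRC3 (0.93, adjusted p = 0.067 by limma) stands next to TANK.

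The superfamily also has members with other names, and 9 of these were followed. Of the 9, 5 were tested, 2 rose, 1 fell, and NGFR (log2 fold change -0.24) and RELT (-0.12) did not pass. Among all genes tested, 58.0% were called, 28.5% higher and 29.6% lower, and counts this small are given as a description only. CD40LG, EDA, EDAR and CD27 were under the filter. EDA2R, which encodes a receptor of ectodysplasin and is a known p53 target, rose from 131 ± 21.0 to 268 ± 40.3 normalized counts (SD, n = 3), a log2 fold change of 1.02 (adjusted p = 0.00025 by limma). CD70, which encodes the ligand of CD27, held 2123, 1685 and 944 normalized counts under DMSO, against 2695, 2157 and 2234 under 22d. Its rise of 0.65 (adjusted p = 0.023 by limma) was lost without DMSO replicate 3 (0.31, adjusted p = 0.080) and without 22d replicate 1 (0.55, adjusted p = 0.066). CD27 lay at 3.41, 1.03 and 5.48 normalized counts under DMSO, against 20.5, 11.9 and 11.8 under 22d. In the authors' deposited table CD27 was higher with 22d (adjusted p = 0.018). CD40, a costimulatory receptor gene, was low and fell by 1.09 (adjusted p = 0.026 by limma), from 36.4, 43.4 and 17.6 to 11.7, 11.9 and 18.5 normalized counts. The CD40 groups overlapped, and the call was lost without DMSO replicate 1 or 2 or 22d replicate 1 or 2 (adjusted p between 0.060 and 0.13) and with scaling by library totals (0.056).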

How the data were processed

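RNA-seq of 3 DMSO and 3 22d libraries was analysed from 1 deposited table, whose columns were assigned by arm and number. The submitters' processing notes name the build hg38 and the tools STAR, HTSeq, cutadapt, FastQC and DESeq2; versions, annotation and strand setting are not given in the sources used here. Per the file headers, the deposited values are a normalized signal per library and its mean, a log2 fold change with its standard error, a test score, and p-values with adjusted p-values. Multiplied by 1 size factor per library, 100% of the normalized values were whole numbers to a tolerance of 0.001 read, and read counts were thus recovered. By the same adjusted p, edgeR called 7723 of 13297 genes on those reads, limma called 7718 and 7505 of 16215 passed in the authors' deposited table. The authors' deposited table gave the same 11 members as higher and 0 as lower, and edgeR called 11 higher and 0 lower.

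Normalized counts were tested with limma-trend 3.58.1 in R 4.3.3 on log2(value + 1), without a block. On this scale fold changes of low genes are shrunk. edgeR 4.0.16 with its quasi-likelihood test and DESeq2 1.42.0 on recovered reads were alternatives, with other pseudocounts (0.5 and 5), filters (none, and a mean of 50), scalings, a replicate block and each library left out. The fit was tested on simulated data. Exon lengths, overlaps and 50-base stretches came from GENCODE v29, and start windows from RefSeq. All 39 members were named; of other lists, the 4 largest called rises and falls at a mean of at least 100 and 10 fixed genes. The members and lists were chosen with earlier results of these data known. Figures used Python 3.11.15 and matplotlib 3.10.9.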

Additional observations from a re-analysis of the deposited data

How the results depend on the processing

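Of the 12 called members, 10 kept their call and direction in every alternative that tested them; the exceptions were TNFRSF10A and TNFSF13B. Over the alternatives, 9 to 15 members were called, and 10 to 13 with 1 library left out. The filter at a mean of 50 left out FAS, TNFRSF25, TNFSF4 and TNFRSF13C, so 2 death receptors were called against 4. The median of death receptors minus that of the other members (-0.13) was 0.084 with no filter, -0.56 with the filter at 50 and 0.12 under quantile normalization, and lay between -0.22 and 0.068 with 1 library left out. Scaling by library totals moved the median of all genes to 0.22, and called 5278 genes higher and 2766 lower against 3784 and 3934.

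Of the members that did not pass, LTBR, TNFRSF10C and TNFRSF13C kept 1 sign in every alternative, and the others changed sign in at least 1. With library-total scaling, TNFRSF1A was 0.10 and TNFRSF1B 0.21. Under quantile normalization TNFRSF1A was 0.14, TNFRSF1B 0.30, TNFSF13 -0.010, TNFRSF12A -0.18, LTB -0.15 and TNFRSF21 -0.17. With edgeR TNFRSF1B was 0.019. With 1 library left out, the log2 fold change lay between -0.91 and 0.0071 for TNF, -0.049 and 0.13 for TNFRSF12A, -0.047 and 0.29 for LTB, -0.051 and 0.026 for TNFRSF1B, -0.12 and 0.20 for TNFRSF21, and -0.014 and 0.23 for TRADD. The cause was not tested.

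The replicate numbers did not pair the samples: deviations from the group means of libraries with the same number had correlations across genes of -0.03, -0.02 and -0.10. With the replicate number as a block, 13 members and 7419 genes were called, TNF (adjusted p = 0.022) and TNFRSF13C (0.036) passed as lower and TNFRSF10A did not (0.071). The 17 members under the filter have few reads.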

Other observations

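Superfamily genes that lie side by side on hg38 did not all move alike. On chromosome 19, TNFSF9, CD70 and TNFSF14 lie in 1 run, with 47.3 kb between TNFSF9 and CD70 and 57.1 kb between CD70 and TNFSF14. All 3 were called higher with 22d (log2 fold changes 0.58, 0.65 and 1.52), where 28.5% of all genes tested were. Leaving out DMSO replicate 3 (0.31, adjusted p = 0.080) or 22d replicate 1 (0.55, adjusted p = 0.066) ended the CD70 call. On chromosome 8, TNFRSF10B, TNFRSF10C, TNFRSF10D and TNFRSF10A follow each other with gaps of 33.4, 18.1 and 26.4 kb, and their log2 fold changes were 0.75, 0.52, 1.03 and -0.36. On chromosome 12, TNFRSF1A and LTBR are 32.9 kb apart and neither passed, while CD27, 53.3 kb from LTBR and under the filter, averaged 3.31 normalized counts with DMSO and 14.7 with 22d. On chromosome 6, TNF and LTB are 2.2 kb apart and neither passed. On chromosome 1, TNFRSF4 rose while TNFRSF18, 4.6 kb away, held 0 to 7 reads per library. The neighbours were listed after their values were seen, not every neighbouring pair is given, and no test of position was made.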
